A study of Homo sapiens with 6 samples.

Results

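Integrins and cadherins are the receptors by which a melanoma cell holds on to matrix and to other cells. The probes described here are those of the non-normalized signal table whose annotated symbol is an integrin subunit (ITGA or ITGB followed by a number or letter) or CDH followed by a number. There were 72 such probes for 46 genes, among 48803 probes and 18665 named genes on the array. A probe was tested if its detection p was under 0.01 on at least 3 of the 6 arrays, and 31 probes for 26 of the genes passed, of 18156 probes and 11264 named genes tested in all. By role, 22 probes belonged to 17 integrin alpha subunits, 19 to 8 integrin beta subunits, 23 to 17 classical cadherins and 8 to the atypical cadherins CDH16, CDH17, CDH23 and CDH26.

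The arrays came from WM-266-4, a human melanoma cell line, stably transfected with the plasmid pEXPR-IBA103 with the cDNA insert for CT16 (cancer-testis antigen 16, encoded by PAGE5) or with the intact plasmid as control. Both lines had been selected with G418 and were kept in it, and total RNA of 3 samples per line was hybridized, 1 sample to an array. The sources used here do not give whether each line was a single clone or a pool, nor whether the 3 samples were separate cultures. The p-values therefore measure only the spread between these samples, which may be technical. The comparison asks whether transcripts for adhesion receptors differed between cells with and without the CT16 plasmid.

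An integrin is a pair of 1 alpha and 1 beta chain that spans the membrane. The alpha chain largely sets which matrix protein or cell-surface ligand is bound, and the beta tail recruits talin and kindlin to connect the receptor with actin. A classical cadherin binds the same cadherin on the next cell through calcium-dependent outer domains, and its tail binds beta-catenin and p120-catenin. Melanocytes in skin adhere to keratinocytes through E-cadherin (CDH1), and melanomas often carry N-cadherin (CDH2) in its place and gain the beta3 integrin (ITGB3).

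The arrays were not equally alike. CT16 replicate 3 correlated with the other CT16 arrays at a mean r of 0.899, against 0.884 to 0.936 with the control arrays, and it correlated best with control replicate 1. It had 16200 detected probes (33.2%), and the other arrays had 17151 to 18789. Of the tested member probes, 24 of 31 had on CT16 replicate 3 a value outside the range of the other 5 arrays, 12 of them the lowest and 12 the highest, against 77.3% of all tested probes. Control replicate 1 deviated from its group in the same direction as CT16 replicate 3 (r = 0.75 across probes). Differences without CT16 replicate 3 are therefore given beside those over all 6 arrays. PAGE5 probe ILMN_2363141 had signals of 117, 120 and 171 on CT16 arrays and 80.7, 84.6 and 94.2 on control arrays. Its log2 difference of 1.11 did not pass the threshold (adjusted p = 0.582). A second PAGE5 probe detected on all 6 arrays, ILMN_1744656, gave 0.02 (adjusted p = 0.994), and ILMN_1695992 was detected on no array. Whether any of these probes reads the plasmid insert was not tested, so their values do not measure the overexpression. The authors checked the line with the insert by qRT-PCR and Western blot, and described its expression of the antigen as verified. By immunofluorescence they saw only background staining in control cells. All 7 listed melanoma markers were tested and 0 were called. PMEL (0.26), MLANA (0.22) and S100B (0.22) had higher means in CT16 cells. TYR (-0.37), TYRP1 (-1.18), MITF (-0.62) and SOX10 (-0.08) had lower ones, though another tested MITF probe gave 0.56. Without CT16 replicate 3, TYRP1 gave -0.45 and MITF 0.0009. S100B was detected on 2 CT16 and 3 control arrays, and the others on all 6 arrays.

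None of the member probes passed the threshold. At a Benjamini-Hochberg adjusted p under 0.05 (limma), 0 of 31 member probes were called, against 0.198% of all tested probes (36 of 18156). At an unadjusted p under 0.05 there was 1 member, CDH1, against 6.34% of all tested probes. A rank product test computed here, not the authors' own run, called 0 members. The median log2 difference of CT16 minus control was 0.03 over the members and -0.01 over all tested probes, with 19 members above and 12 below 0. Under median scaling 13 were above 0 and the median was -0.03. Of the 31 differences, 28 were within 0.5 of 0 on the log2 scale, and for 18 the whole 95% interval lay between -1 and 1. The intervals of the others reach a log2 difference of 1 in at least 1 direction. The 3 CT16 values and the 3 control values did not overlap for 5 member probes, with CT16 higher for 3 and lower for 2, against 14.1% of all tested probes in either direction.

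The cadherin repertoire comes first. Of 17 classical cadherin genes, 6 were tested: CDH1, CDH2, CDH7, CDH15, CDH19 and CDH24. CDH1, encoding E-cadherin, the cadherin of epithelia and normal melanocytes, had log2 signals of 4.44, 4.45 and 4.54 on CT16 arrays, against 5.85, 5.47 and 5.47 on control arrays. No CT16 array detected it and all 3 control arrays did, where it lay just above the lowest detected signals of 5.14 to 5.25. The deposited signals, before any correction, were 57.0, 55.7 and 58.7 in CT16 cells and 93.4, 85.7 and 85.8 in control cells. The groups were well apart, and the 3 CT16 values lay close together.

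The fitted log2 difference of CDH1 was -1.12 ± 0.21 (SE, n = 3 each), with a 95% interval of -1.62 to -0.63, and it did not pass the threshold (adjusted p = 0.142). Since a level below background is only a bound, the group means put CDH1 at least 1.34-fold lower in CT16 cells. This bound carries no error and is not a test. For this bound the control mean was set against the lowest signal that counted as detected on each CT16 array, which was above the signal of CDH1 there. CDH1 passed the detection filter through the control arrays alone, so a lower CT16 value was built into its selection. The size of the fitted difference depends on how background was handled, and was -0.63 without background correction and -0.55 with an offset of 50. Without CT16 replicate 3 the difference was -1.19 and passed (adjusted p = 0.033), as 1 of 31 members against 1.10% of all tested probes. The difference did not pass without CT16 replicate 1 (adjusted p = 0.614) or CT16 replicate 2 (adjusted p = 0.366). Without control replicates 1, 2 and 3, each left out singly, the adjusted p was 0.6, 0.763 and 0.542. With the replicate block the difference did not pass either (adjusted p = 0.731). Without both CT16 replicate 3 and control replicate 1, a choice made after seeing the data, it was -1.09 (adjusted p = 0.018), as 1 of 31 members against 1.97% of all tested probes.

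CDH2, encoding N-cadherin, the cadherin of neural and mesenchymal cells, was detected on every array. Its log2 signals were 11.44, 11.62 and 10.72 on CT16 arrays, against 11.15, 11.26 and 11.33 on control arrays. CT16 replicates 1 and 2 lay above all control arrays and CT16 replicate 3 below them. The difference was 0.02 ± 0.28 (SE; adjusted p = 0.994), with a 95% interval of -0.64 to 0.67, and 0.28 without CT16 replicate 3 (adjusted p = 0.564). The probe gave a signal far above background in both lines.

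CDH15, encoding M-cadherin of skeletal muscle precursors, was also detected on every array. Its log2 signals were 9.14, 8.99 and 10.03 on CT16 arrays and 9.51, 9.03 and 8.94 on control arrays. The groups overlapped, with the highest value on CT16 replicate 3. The difference was 0.23 ± 0.33 (SE; adjusted p = 0.962), and -0.09 without that array. CDH19, a cadherin of the neural crest and Schwann cell lineage, had log2 signals of 9.27, 9.86 and 8.13 on CT16 arrays and 8.64, 9.38 and 9.53 on control arrays. Its lowest values came from CT16 replicate 3 and control replicate 1, and the difference was -0.10 ± 0.46 (SE), or 0.37 without CT16 replicate 3. CDH7, a classical cadherin known in chick from migrating neural crest cells, gave 0.34 ± 0.38 with CT16 replicate 3 and -0.04 without it. CDH24 gave -0.06 ± 0.30, or -0.26 without that array, and was detected on 1 CT16 and 2 control arrays.

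**Figure D1:**
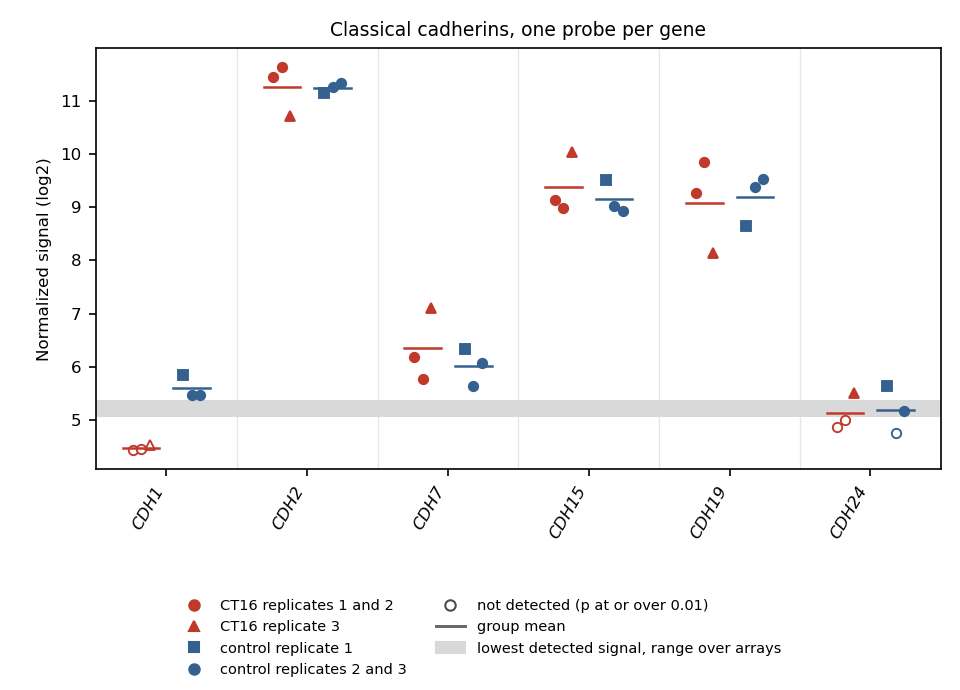
Normalized log2 signal (vertical axis) of the 6 tested classical cadherins on each array, CT16 left and control right of each gene's tick. Triangles are CT16 replicate 3, squares control replicate 1, open symbols values that were not detected, bars group means, and the grey band spans the lowest detected signals of the 6 arrays (5.07 to 5.39). The CDH1 values of the 3 CT16 arrays lie under the band and those of the 3 control arrays above it, while the other 5 genes overlap. Heights of different probes are not comparable.

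The other classical cadherins did not pass the detection filter. These were CDH3 (P-cadherin), CDH5 (the cadherin of endothelium), CDH6, CDH8, CDH9, CDH10, CDH11, CDH12, CDH18, CDH20 and CDH22. The 4 atypical cadherins also stayed below it, among them CDH17 of intestine and CDH23 of hair cells. Of the 23 classical cadherin probes 13 were detected on no array, and of the 8 atypical ones 6. CDH4 and CDH13 were not found among the annotated symbols and were not analysed here. CDH9, CDH16, CDH20, CDH22 and CDH23 each had 1 array above the detection limit, and failing the filter does not show that a transcript was absent.

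Among the integrin alpha chains, 13 of 17 genes were tested, and their probes ran from -0.60 to 0.56 in log2 difference, with a median of 0.02. ITGAV encodes alphaV, the chain shared by the vitronectin and fibronectin receptors alphaVbeta3, alphaVbeta5 and alphaVbeta8. Its log2 signals were 10.71, 11.33 and 9.10 on CT16 arrays, against 10.03, 10.93 and 11.10 on control arrays. The spread within the CT16 group was wider than the gap between groups, and its lowest value came from CT16 replicate 3. The difference was -0.31 ± 0.58 (SE; adjusted p = 0.968). It turned to 0.32 without that array (adjusted p = 0.743), and to 0.01 without control replicate 1 as well.

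ITGA3 encodes alpha3, which pairs with beta1 to bind laminins. It had log2 signals of 9.99, 10.03 and 10.63 on CT16 arrays and 10.61, 9.95 and 10.05 on control arrays. A single array of each group stood above the rest, and the group means were nearly equal, with a difference of 0.01 ± 0.29 (SE; adjusted p = 0.997). ITGA5, the fibronectin receptor chain alpha5, had the largest positive difference of all tested members, 0.56 ± 0.32 (SE; adjusted p = 0.959). Its log2 signals were 9.56, 9.23 and 10.23 on CT16 arrays and 9.36, 8.74 and 9.25 on control arrays. The groups overlapped, and the difference was 0.28 without CT16 replicate 3.

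ITGA4, the alpha4 chain that binds VCAM1 and fibronectin, showed how far 1 array set the result. Its log2 signals were 8.22, 8.47 and 6.87 on CT16 arrays and 7.38, 7.72 and 7.98 on control arrays. CT16 replicates 1 and 2 were above every control array and CT16 replicate 3 was below every one. The difference was 0.16 ± 0.43 (SE) with all arrays and 0.65 ± 0.22 without CT16 replicate 3 (adjusted p = 0.313). ITGA1, a collagen receptor chain, went the same way, with -0.41 with all arrays and 0.19 without CT16 replicate 3, on which it was not detected. ITGA2, the other widely expressed collagen receptor chain, was at 7.98, 7.74 and 6.97 on CT16 arrays and 7.93, 8.14 and 8.10 on control arrays. Its difference was -0.49 ± 0.30 (SE; adjusted p = 0.959), or -0.19 without CT16 replicate 3.

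The remaining chains of the beta1 family differed little. ITGA6, the laminin-binding alpha6 chain, had 2 tested probes with differences of 0.10 and -0.18, or 0.26 and 0.04 without CT16 replicate 3. ITGA7, a laminin receptor chain of muscle, gave 0.21 with that array and 0.06 without it. ITGA9, which binds tenascin-C and osteopontin, gave 0.06 and -0.10, and ITGA10, a collagen receptor chain of cartilage, gave 0.17 and -0.09. Over all 6 arrays each of these had an adjusted p of 0.962 or more.

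Some probes of the leukocyte chains were detected. ITGAE, which with beta7 binds E-cadherin on epithelium, was detected on all 6 arrays with a difference of 0.03 ± 0.20 (SE), or 0.09 without CT16 replicate 3. ITGAX (CD11c) gave -0.25 ± 0.26, or -0.39 without that array, by a probe likewise detected on all 6. The other ITGAX probes, ILMN_1726175 and ILMN_1730176, were detected on no array. ITGAM (CD11b), the alpha chain of complement receptor alphaMbeta2, had log2 signals of 4.80, 5.36 and 4.56 on CT16 arrays, against 5.68, 5.36 and 5.47 on control arrays. The groups did not overlap, but the highest CT16 and the lowest control value were equal to 2 decimals. In the deposited signals the groups did overlap, at 82.8 on CT16 replicate 2 and 82.0 on control replicate 2. ITGAM was detected on 1 CT16 and 3 control arrays. It met the detection filter through the control arrays, so a lower CT16 value was favoured by its selection. The difference was -0.60 ± 0.27 (SE; adjusted p = 0.810), and -0.44 without CT16 replicate 3. ITGA2B (platelet glycoprotein IIb), ITGA8, ITGAD and ITGAL (CD11a) were not tested.

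Among the integrin beta chains, 7 of 8 genes were tested with 11 probes, and the differences ran from -0.22 to 0.37 with a median of 0.10. ITGB5 encodes beta5, the partner of alphaV in a vitronectin receptor. On its brightest probe the log2 signals were 13.71, 13.72 and 13.80 on CT16 arrays, against 13.32, 13.39 and 13.42 on control arrays. Every CT16 array lay above every control array and the CT16 values were close to each other. The difference was 0.37 ± 0.19 (SE), with a 95% interval of -0.08 to 0.81, and did not pass the threshold (adjusted p = 0.929).

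The other 2 tested ITGB5 probes also had positive differences. The first was at 12.17, 12.28 and 12.44 on CT16 arrays and 12.04, 11.86 and 11.98 on control arrays, again without overlap, for a difference of 0.34 ± 0.20 (SE; adjusted p = 0.959). The last gave 0.26 ± 0.25 with overlapping groups. Without CT16 replicate 3 the 3 differences were 0.35, 0.27 and 0.20, so its sign and size did not rest on that array. The probes share their target and are not replicates of the condition.

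ITGB3 encodes beta3, the partner of alphaV in the receptor associated with melanoma invasion. Its log2 signals were 9.72, 9.66 and 9.67 on CT16 arrays, against 9.62, 9.35 and 9.26 on control arrays. Every CT16 array was above every control array, by a small margin. The difference was 0.27 ± 0.21 (SE; adjusted p = 0.959) and 0.27 without CT16 replicate 3. ITGB8, the alphaV partner that binds latent TGF-beta, was at 7.46, 7.29 and 5.90 on CT16 arrays and 6.52, 6.69 and 7.14 on control arrays. CT16 replicate 3 was again the lowest array of all, and the difference was 0.10 ± 0.43 (SE) with it and 0.60 ± 0.22 without it (adjusted p = 0.359).

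ITGB1 encodes beta1, the partner of most alpha chains named above. Its brighter probe was at 13.09, 13.42 and 11.65 on CT16 arrays, against 12.63, 13.08 and 13.09 on control arrays. CT16 replicate 3 was the lowest array and control replicate 1 the next. The difference was -0.22 ± 0.46 (SE; adjusted p = 0.971), and the other probe gave -0.21 ± 0.43. Without CT16 replicate 3 the brighter probe gave 0.32 and the other 0.28, so the sign rested on that array. ITGAV, ITGA4, ITGB1 and ITGB8 therefore all had their lowest value on CT16 replicate 3, while ITGA3, ITGA5, ITGB2 and, on its brightest probe, ITGB5 had their highest there.

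The other beta chains were ITGB2, ITGB4 and ITGB7. ITGB2 (CD18), the chain shared by the CD11 integrins of leukocytes, was detected on all 6 arrays by both tested probes, with differences of 0.02 and -0.03, or -0.19 and -0.22 without CT16 replicate 3. ITGB4, the laminin-receptor chain of hemidesmosomes, gave 0.23 ± 0.26 (SE), or 0.06 without that array. ITGB7, the partner of ITGAE and ITGA4 in lymphocytes, gave 0.03 ± 0.30, or -0.25 without it. ITGB6, an epithelial partner of alphaV, was not tested.

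**Figure D2:**
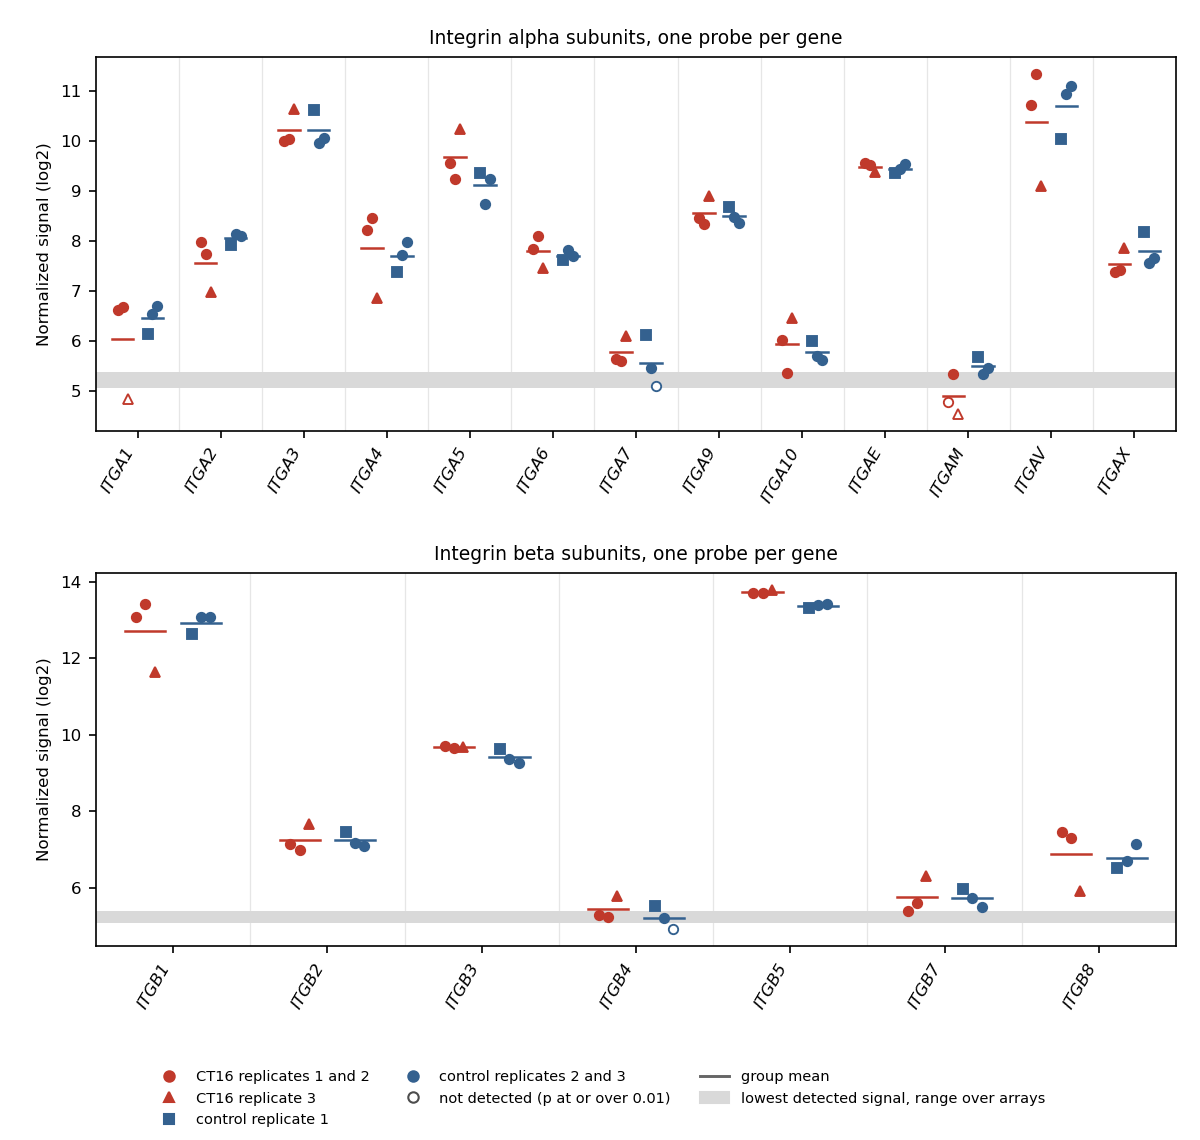
Normalized log2 signal (vertical axis) of 13 integrin alpha and 7 integrin beta genes on each array, 1 probe per gene, CT16 left and control right of each tick. Triangles are CT16 replicate 3, squares control replicate 1, open symbols values that were not detected, bars group means, and the grey band the lowest detected signals of the 6 arrays. The triangle lies far below the other CT16 values for ITGAV (9.10), ITGA4 (6.87) and ITGB8 (5.90), and the groups are separate for ITGB3, ITGB5 and, narrowly, ITGAM. Heights of different probes are not comparable.

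Markers of cells that carry beta2 integrins were followed beside ITGB2, ITGAX and ITGAM. Of 7 leukocyte markers listed, 4 were tested, and the defining genes PTPRC (CD45), CD3E and CSF1R were detected on no array. The tested ones were CD14, CD68, LYZ and CD53, with differences of 0.33, 0.85, 0.11 and -0.93. Without CT16 replicate 3 these were 0.06, 0.75, -0.06 and -1.08, and none passed the threshold. The deposited signal summed over all 7 listed markers, background and undetected probes included, was 1647 to 2109 in CT16 cells and 1426 to 1662 in control cells. Of 7 epithelial markers, 2 were tested beside CDH1, EPCAM (-0.03) and KRT18 (-0.36), and KRT5, KRT8, KRT14 and KRT19 were detected on no array. Without CT16 replicate 3, EPCAM gave -0.19 and KRT18 -0.87, and neither passed the threshold. The same sum over the 7 epithelial markers was 459 to 530 in CT16 cells and 494 to 524 in control cells. Of 4 platelet markers 1 was tested, and the sum over all 4 was 307 to 327 in CT16 cells and 334 to 385 in control cells. Of 6 endothelial markers 5 were tested, and the sum over all 6 was 645 to 789 in CT16 cells and 636 to 659 in control cells. Whether other cells contributed to these signals was not tested, and in RNA of a whole culture fewer cells with a transcript and less transcript per cell cannot be told apart.

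The errors were smaller without CT16 replicate 3, and the sign of the difference turned for 11 of the 26 genes, each by its probe of highest mean signal. The median SE of the member differences was 0.214 without that array and 0.287 with it, and over all tested probes 0.201 and 0.296. The number of member probes without overlap was 12 of 31 (38.7%) with 2 CT16 arrays, against 33.4% of all tested probes, and 16.1% with 3 CT16 arrays, near the 14.1% given above. By role, 6 of 11 beta-chain probes, 4 of 14 alpha-chain probes and 2 of 6 cadherin probes were then separate. When the arrays were weighted by how well they fitted instead, CT16 replicate 3 had a weight of 0.07 and control replicate 2 a weight of 4.76, and 4 members were called, against 12.3% of all tested probes. These were CDH1 and ITGAM, lower in CT16 cells, and ITGA5 and ITGB8, higher in CT16 cells.

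**Figure D3:**
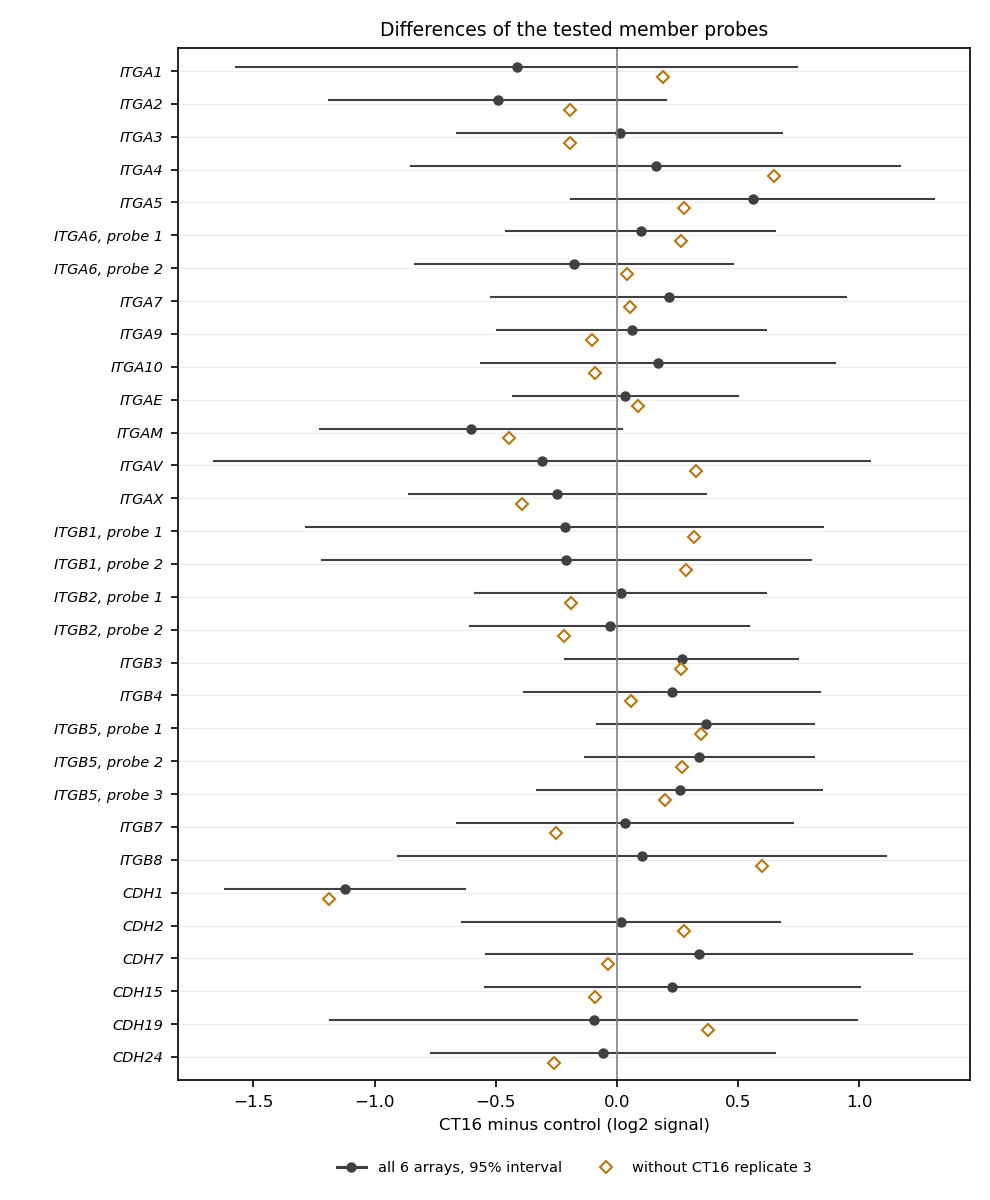
Log2 difference of CT16 minus control (horizontal axis) for the 31 tested member probes, with numbered probes in order of mean signal. Filled points and lines are the difference over all 6 arrays and its 95% interval, and open diamonds the difference without CT16 replicate 3. The interval of CDH1 (-1.62 to -0.63) excludes 0 before adjustment for the number of probes tested, and the diamonds of ITGAV, ITGB1 and CDH19 lie on the other side of 0 from their points.

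The matrix proteins to which these integrins bind were followed as a list. Of 31 listed matrix ligands, 24 were tested, 0 were called higher and 1 was called lower. TGFBI, a secreted matrix protein that binds several integrins, had log2 signals of 5.14, 5.37 and 5.06 on CT16 arrays, against 7.50, 7.25 and 7.11 on control arrays, and was detected on 2 CT16 and 3 control arrays. It fell by 2.10 ± 0.22 on the log2 scale (SE; adjusted p = 0.018), and the difference was -2.09 without CT16 replicate 3 (adjusted p = 0.0039). The call was lost without any other single array, while the sign stayed the same. The adjusted p of TGFBI was then 0.172 without CT16 replicate 1, 0.063 without CT16 replicate 2, and 0.145, 0.223 and 0.115 without control replicates 1, 2 and 3. With the replicate block it was 0.195. The CT16 values of TGFBI lay near the lowest detected signals, and the size of its difference depended on how background was handled. The log2 difference was -1.36 without background correction (adjusted p = 0.043) and -1.43 with an offset of 50 (adjusted p = 0.039). The median difference of the 24 ligands was -0.33, with 21 below and 3 above 0, against -0.01 over all tested probes. Without CT16 replicate 3 the median was -0.16 with 16 below 0, so the shift was smaller without that array. It was -0.08 with 15 below 0 without both CT16 replicate 3 and control replicate 1, and -0.04 with 16 below 0 with array weights. Under median scaling or cyclic loess normalization 19 of the 24 were below 0.

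Groups did not overlap for 9 of the 24 ligands, against 14.1% of all tested probes. The ones named next were chosen after their values were seen. COL1A2, a chain of type I collagen, was at 10.91, 10.70 and 10.33 on CT16 arrays, against 12.87, 12.43 and 12.08 on control arrays. The difference was -1.81 ± 0.28 (SE; adjusted p = 0.088), and -1.63 without CT16 replicate 3 (adjusted p = 0.028). The basement membrane genes COL4A2 and LAMA2 gave -1.09 and -1.03, or -1.08 and -0.77 without that array. In the other direction, FBLN5, encoding the RGD-bearing elastic fibre protein fibulin-5, was at 8.73, 8.88 and 8.86 on CT16 arrays, against 7.97, 7.69 and 7.80 on control arrays. Its difference was 1.00 ± 0.20 (SE; adjusted p = 0.174), and that of the fibronectin gene FN1 was 0.56 ± 0.23. Without CT16 replicate 3 these were 0.98 and 0.65. The receptor chains for collagen (ITGA1, ITGA2), laminin (ITGA3, ITGA6) and fibronectin (ITGA5) passed the threshold in neither direction. Of 7 fibroblast markers, a list that shares COL1A2, 4 were tested, 2 with higher and 2 with lower means in CT16 cells and none past the threshold. LUM gave -1.87 and COL1A2 the value above, while PDGFRA gave 0.33 and FAP 0.05. Without CT16 replicate 3, LUM gave -1.66 (adjusted p = 0.017), PDGFRA -0.03 and FAP 0.39. LUM and COL1A2 then passed the threshold, as 2 of 4 tested markers against 1.10% of all tested probes. With array weights 2 of the 4 were called lower, against 12.3% of all tested probes called in either direction. DCN, COL1A1 and PDGFRB were not tested. The deposited signal summed over all 7 was 2127 to 3289 in CT16 cells and 5644 to 7952 in control cells, and over the 6 other than COL1A2 it was 900 to 1443 in CT16 cells and 995 to 1290 in control cells. Their part in the ligand differences was not tested.

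The counter-receptors on other cells held 1 gene past the threshold. Of 14 listed, 10 were tested, 1 was called higher and 0 lower, with a median of 0.11. THY1 (CD90), a surface glycoprotein that binds beta3 and beta2 integrins, had log2 signals of 7.98, 8.15 and 8.88 on CT16 arrays, against 4.94, 4.38 and 4.80 on control arrays. It was detected on all 3 CT16 arrays and on no control array. After the background correction used here, its group means put it at least 8.91-fold higher in CT16 cells. This bound carries no error, and the size depends on how background was handled. The fitted log2 difference was 3.63, against 2.53 without background correction and 2.57 with an offset of 50. THY1 passed the detection filter through the CT16 arrays alone, so a higher CT16 value was built into its selection. It was called with an adjusted p of 0.0081, and of 0.047 with no detection filter. The call was kept without CT16 replicate 3 (adjusted p = 0.00097) and without CT16 replicate 2 (adjusted p = 0.027). It was lost without CT16 replicate 1 (adjusted p = 0.054), without control replicates 1, 2 and 3 (adjusted p = 0.077, 0.093 and 0.077) and with the replicate block (adjusted p = 0.071). It was not among the probes tested when detection on all 6 arrays was asked for. ICAM2, a ligand of alphaLbeta2 chosen after its value was seen, gave 1.05 (adjusted p = 0.715), or 0.61 without CT16 replicate 3. VCAM1, the ligand of alpha4beta1, was detected on no array.

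On the inner side of the adhesion site no gene passed the threshold. Of 32 listed integrin adaptors and focal adhesion proteins, 29 were tested and 0 were called, with a median of -0.03. FERMT3, kindlin-3 of blood cells, was at 8.27, 8.13 and 9.19 on CT16 arrays, against 7.79, 7.23 and 7.10 on control arrays. The groups were separate, with a difference of 1.16 ± 0.35 (SE; adjusted p = 0.485), or 0.82 without CT16 replicate 3. A further tested FERMT3 probe gave 0.56 over all arrays. CAV1, caveolin-1, gave -0.82 ± 0.52, and -0.17 without CT16 replicate 3. Of 14 cadherin-catenin adaptors, 8 were tested and 0 were called. Their median was -0.25 with 7 of 8 below 0, and 0.12 without CT16 replicate 3, with LIMA1 at -0.79 and ABI1 at -0.54 as the largest. LIMA1 and ABI1 had CT16 replicate 3 as their lowest array, at 7.57 and 6.04, and gave -0.26 and 0.13 without it. CTNNB1, the beta-catenin that binds cadherin tails, gave -0.11 ± 0.27, or 0.14 without that array.

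Transcription factors of the cadherin switch, among them the CDH1 repressors of the SNAI and ZEB families, were followed beside it. Of 13 listed, 6 were tested and 0 were called, with a median of 0.05, or -0.22 without CT16 replicate 3. ZEB2 was at 8.70, 9.03 and 6.70 on CT16 arrays, against 8.88, 9.25 and 9.14 on control arrays. Its difference was -0.95 ± 0.57 (SE; adjusted p = 0.96), or -0.23 without CT16 replicate 3, and another tested probe gave -0.15 over all arrays. SNAI2 gave -0.74 ± 0.42, and -0.27 without that array. SNAI1, SNAI3 and ZEB1 were not tested. The other tested members were TWIST1 (0.26), KLF8 (0.30), FOXC2 (0.22) and TCF3 (-0.12). Without CT16 replicate 3 these gave -0.08, -0.21, 0.07 and -0.38. Of the 6 tested factors, 3 were below 0 over all arrays and 5 without that array. A relation between these genes and CDH1 was not tested.

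The remaining cadherin superfamily, made of desmosomal cadherins, protocadherins and related receptors, had 19 of 38 listed genes tested and 0 called, with a median of -0.14. RET, the receptor tyrosine kinase with cadherin-like outer domains, was at 7.18, 6.88 and 8.44 on CT16 arrays, against 6.28, 6.01 and 6.12 on control arrays. The groups were separate, with a difference of 1.36 ± 0.40 (SE; adjusted p = 0.468) and of 0.91 without CT16 replicate 3 (adjusted p = 0.081). Another tested RET probe gave 0.83 over all arrays. The protocadherin PCDHB5 was at 9.11, 9.04 and 8.90 on CT16 arrays, against 10.20, 9.57 and 9.53 on control arrays, for a difference of -0.75 ± 0.25 (SE), or -0.67 without CT16 replicate 3.

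**Figure D4:**
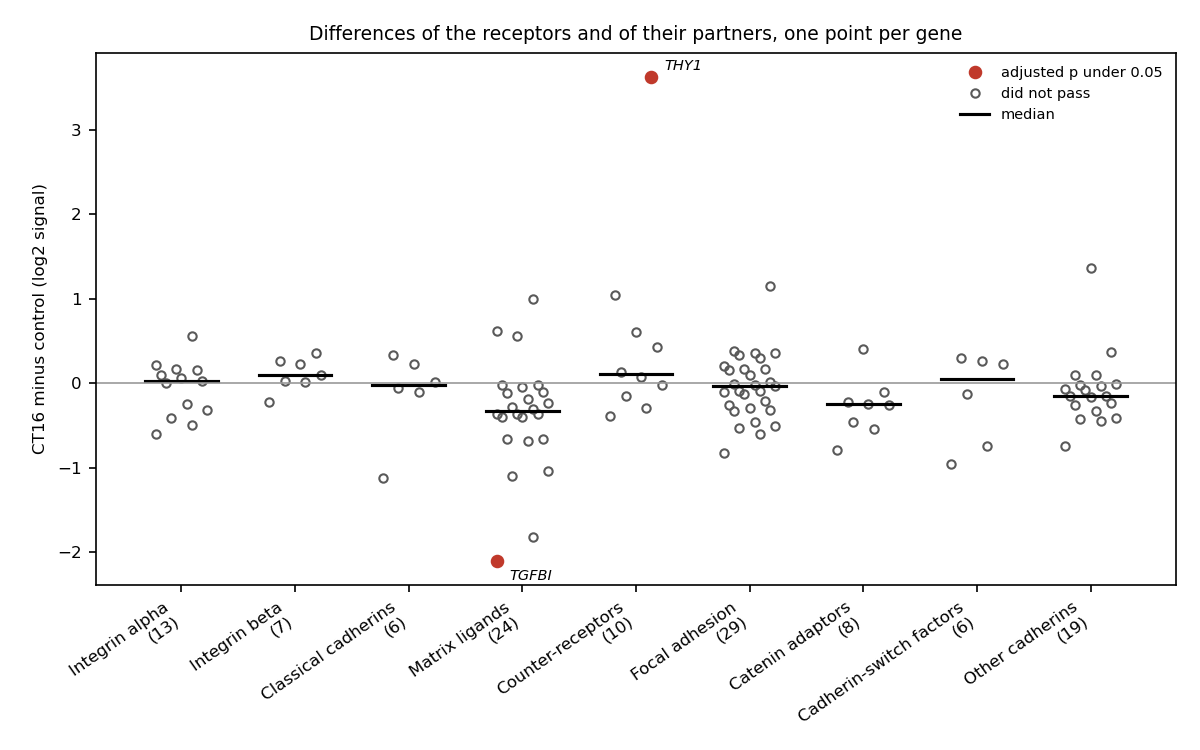
Log2 difference of CT16 minus control (vertical axis) for each tested gene, 1 point per gene and by 1 probe, of 3 receptor classes and 6 lists of partners, with the number of genes in brackets. Red points passed an adjusted p of 0.05 (THY1 and TGFBI) and black bars are medians. The integrin and cadherin columns stay within -1.12 and 0.56, while the matrix ligands reach from -2.10 to 1.00. The height of THY1 is the fitted value, against a group in which it was not detected.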

How the data were processed

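Total RNA was extracted, labelled with biotin and hybridized to 1-colour Illumina Human-6 arrays. The authors deposited probe intensities that were neither normalized nor background-subtracted (48804 rows, 1 of them a repeated probe, which was averaged), with a detection p-value per probe and array, and a table of quantile normalized intensities. Of the deposited normalized intensities, 99.998% lay within 1% of quantile normalized signals computed here. The authors tested with rank products in the RankProd package. The rank product alternative here took the median over pairings of CT16 and control arrays. It used a gamma approximation and Benjamini-Hochberg adjustment, so its counts need not equal those of the authors' method. The median deposited intensity per array was 63.6 to 65.6.

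Background was corrected with nec of limma 3.58.1 (R 4.3.3), which took the negative-control mean and SD from the detection p-values, with an offset of 16, followed by quantile normalization and log2. The plasmid effect was tested for all 18156 probes with lmFit and eBayes, two-sided, with Benjamini-Hochberg adjustment over all of them. The script was tested on simulated data. Probes were named from the platform annotation: 27578 had 1 symbol, 13 several (left unnamed) and 21212 were not listed. Of the named probes, 27541 matched a RefSeq gene table of GRCh38.p14, used for names only.

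Genes were read by their tested probe of highest mean signal. Values per array were given by rule for members whose groups did not overlap with a difference of at least 0.5 (CDH1, ITGAM) and for the 2 of highest mean signal in each role (ITGAV, ITGA3, ITGB5, ITGB1, CDH2, CDH15), and for lists the genes past the threshold or else the 2 largest differences. Values per array of further members, and genes said to be so, were chosen after seeing the data. The members and lists were chosen with earlier results of these data known. Replicate numbers were not used as pairs, since deviations of same-numbered arrays correlated at -0.62, 0.61 and -0.58. Alternatives were other background corrections, scalings, filters and tests, each array left out, and a replicate block. The number of arrays limits the precision.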

Additional observations from a re-analysis of the deposited data

How the results depend on the processing

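With 3 arrays per group the precision was set by the arrays, and for CDH1, not detected on any array of one group, only a bound on size can be had. The number of member probes called was 4 with array weights and 0 under the 10 other alternatives that kept all arrays, rank product included. It ran from 0 to 1 when arrays were left out, and was 1 (CDH1) without CT16 replicate 3, alone or with control replicate 1. Over all tested probes 36 were called, against 2237 with array weights, 157 by rank product, 7 with detection on all 6 arrays, and 4 to 357 when arrays were left out, the most without both CT16 replicate 3 and control replicate 1. Replicate numbers did not pair the arrays, and with the replicate block 3 of all tested probes and 0 members were called. Member probes without overlap numbered 5, against 3 with detection on all 6 arrays, 9 with no detection filter and 5 to 16 when arrays were left out. The median member difference stayed between -0.03 (median scaling) and 0.08. For scale, each array's own median over the tested member probes had an SD of 0.173 over replicates, pooled over groups, which is not the error of a difference. Among the 8 genes given by rule, the signs of the small differences of ITGA3, ITGB1, ITGAV, CDH2 and CDH15 depended on settings. ITGA3 was -0.0043 with array weights, -0.0027 with median scaling and -0.19 to 0.22 with arrays left out. ITGB1 was 0.074 with array weights and -0.57 to 0.32 with arrays left out. With arrays left out ITGAV ran from -0.79 to 0.32, CDH2 from -0.17 to 0.28 and CDH15 from -0.091 to 0.43. For these signs the cause was not tested. CDH1, ITGAM and ITGB5 kept their signs under every alternative that tested them. CDH1 and ITGAM had met the detection filter through the control arrays, which favoured a lower CT16 value. Their constant sign is therefore no support for a difference. Of the 26 genes, 11 turned sign without CT16 replicate 3, 7 without it and control replicate 1, 6 with array weights, 6 under median scaling, 2 under cyclic loess and 0 with the authors' normalized values.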
